A study of Arabidopsis thaliana with 4 samples.

Results

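A set of 43 Arabidopsis loci was defined by where the deposited lists of differentially methylated regions (DMRs) name them: in both light intensity comparisons, SQL against SQH and FLL against FLH, and in neither light pattern comparison, FLH against SQH and FLL against SQL. The members were taken from the column of gene names in any sequence context. They made up 43 of the 5110 loci named in any comparison (0.841%) and 43 of the 382 named in both intensity comparisons (11.3%). Of the other loci named in both intensity comparisons, 70 were also named only in FLH against SQH, 80 only in FLL against SQL, and 189 in both pattern comparisons. As a background, SQL against SQH named 2.39% of the 37899 annotated nuclear loci, FLL against FLH 5.57%, FLH against SQH 5.65% and FLL against SQL 7.81%.

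The data were whole-genome bisulfite sequencing of leaves of the Col-0 accession, acclimated for 22 days to 1 of 4 light regimes at a common temperature with ample water. The low-light regimes are SQL, a square regime whose lamps stay at a constant level through the day, and FLL, a fluctuating regime that imitates a natural day, and their high-light counterparts are SQH and FLH. Within a level, the SQ and FL regimes gave the same amount of light over a day. Each regime was represented by 1 library, made from DNA pooled from 6 plants, so no difference has a replicate check and no p-value is given. The deposited calls chose the members, and all intensity differences below are therefore descriptions of what was selected. Levels are methylated reads over total reads, summed over the cytosines of a context in a region, and intervals are 95% Wilson intervals (95% Newcombe intervals for differences) that cover counting error only. A read counts once for each cytosine it covers, so the reads of a region are not independent molecules. Each library has a deposited value only in comparisons that list the region.

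Cytosine methylation in plants occurs in 3 sequence contexts. CpG methylation is copied after DNA replication by MET1, CpHpG methylation (H being any base but G) is kept by CMT3 in a loop with histone H3 lysine 9 methylation, and CpHpH methylation has to be re-established by DRM2 through RNA-directed DNA methylation or by CMT2. Dense methylation in all contexts is typical of transposable elements (TEs) and of pseudogenes derived from them, whereas many expressed genes carry methylation in CpG alone.

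The locus set consisted mostly of pseudogenes. Of the 42 loci found in the annotation, 30 were pseudogenes, 11 protein-coding genes and 1 a non-coding RNA, while AT4G18000 was not matched. The 43 loci held 94 regions, of which 46 came from SQL against SQH and 48 from FLL against FLH. Regions were 150 bp bins, except for 2 joined regions of 300 bp. The regions of both comparisons overlapped by at least 1 base at 11 of the 43 loci, and at 9 of these the same bin was listed in the same context. At 6 further loci the regions lay in adjacent bins, and at the other 26 they were 150 to 4350 bp apart (median 1050 bp). At 32 of the 43 loci the regions of both comparisons did not overlap, beside 262 of the 339 other loci named in both intensity comparisons (77.3%), without adjustment for the number of regions per locus.

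Of the 9 shared bins, 4 are printed from the + strand of the RefSeq TAIR10.1 genome, 5′ to 3′, because they carry the levels described next. Capitals mark the cytosines of the listed context on either strand, a capital G standing for a cytosine of the other strand. The counted cytosines of this genome equalled the deposited number at 94 of 94 regions. The bin of the pseudogene AT2G06335 holds the only CpG call of the set that both comparisons list at the same bin, on 4 cytosines in its last stretch.
AT2G06335, CpG, chr2:2498951-2499100: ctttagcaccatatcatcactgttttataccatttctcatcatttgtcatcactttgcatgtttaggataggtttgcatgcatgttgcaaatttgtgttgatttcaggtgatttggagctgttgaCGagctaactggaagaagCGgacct
The bin in an intron of AT1G34580 holds 41 CpHpH cytosines and runs of T and C.
AT1G34580, CpHpH, chr1:12662701-12662850: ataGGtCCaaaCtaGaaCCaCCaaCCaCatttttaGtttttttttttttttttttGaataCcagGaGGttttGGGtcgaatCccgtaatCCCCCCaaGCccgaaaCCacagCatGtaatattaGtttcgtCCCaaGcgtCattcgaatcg
The intron bin of AT1G65985, with 28 CpHpH cytosines, had the lowest level of the shared bins.
AT1G65985, CpHpH, chr1:24565051-24565200: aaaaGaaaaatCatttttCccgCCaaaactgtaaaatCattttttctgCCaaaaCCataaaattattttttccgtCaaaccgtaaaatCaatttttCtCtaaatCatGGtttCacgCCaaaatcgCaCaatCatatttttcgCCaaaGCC
For AT2G24570 (WRKY17) only the 102 bases beyond the annotated 3′ end are given, which hold 26 of the 40 CpHpH cytosines of the bin.
AT2G24570, CpHpH, chr2:10437251-10437352: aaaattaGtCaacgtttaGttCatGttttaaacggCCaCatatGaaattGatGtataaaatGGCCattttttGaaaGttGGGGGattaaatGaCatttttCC

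At the 9 shared bins, which are the only places where the files give these loci a value in all 4 libraries in the same context, the low-light and high-light libraries differed in the same direction under SQ and FL. Such a result is partly fixed by the selection, since a bin that moved in opposite directions would tend to be listed in a pattern comparison too. Across the whole series, 338 bins were listed in both intensity comparisons in the same context, and 44.7% of them had the same direction in both. Among the 139 of these that neither pattern comparison listed, 88.5% had the same direction, against 28 of the 199 bins with a pattern call. The 9 of 9 shared bins of the locus set are therefore to be read beside the 88.5%. Of the 9 bins, 5 lay at protein-coding genes, 3 at pseudogenes and 1 at the non-coding RNA.

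The largest CpHpH differences of the set were at AT2G24570 (WRKY17), which encodes a WRKY transcription factor known for restraining basal defence against bacteria. The bin covers 48 bases of its 3′ end and lies in a BOMZH1 element. It was methylated at 46.1% of 191 reads in SQL (95% interval 39.2 to 53.2) and 27.2% of 217 reads in SQH (21.7 to 33.5). In the fluctuating regimes it was methylated at 44.1% of 261 reads in FLL (38.2 to 50.1) and 23.5% of 187 reads in FLH (18.0 to 30.1). Both low-light libraries were above both high-light libraries, by 18.9 percentage points (9.54 to 27.8) under SQ and 20.5 points (11.7 to 28.7) under FL. Depth here was 4.68 to 6.53 reads per cytosine.

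AT4G00120 (IND, INDEHISCENT) encodes a basic helix-loop-helix transcription factor required for the valve margins along which the fruit opens. Its bin (chr4:41651-41800 of TAIR10) covers 136 bases at the 3′ end of the gene and lies in the SINE family RathE1_cons. The CpHpH level was 33.6% of 256 reads in SQL against 49.2% of 260 reads in SQH, a difference of -15.6 points (-23.8 to -7.14). It was 40.8% of 419 reads in FLL against 52.3% of 279 reads in FLH, a difference of -11.5 points (-18.9 to -3.97). Both low-light libraries were thus lower than both high-light libraries, opposite to WRKY17. The same bin was also listed in CpHpG under FL, with 60.2% in FLL and 86.4% in FLH.

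AT1G19890 (MGH3) encodes a histone H3 specific to the male gametes. Its bin (chr1:6906001-6906150) overlaps the annotated gene by only 28 bases at the 3′ end and lies in no TE. The CpHpH level was 19.9% of 322 reads in SQL against 30.0% of 283 reads in SQH, and 20% of 215 reads in FLL against 31.7% of 293 reads in FLH. The differences were -10.2 points (-17.0 to -3.26) under SQ and -11.7 points (-19.1 to -4.00) under FL, and the low-light libraries differed from each other by 0.124 points.

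The remaining protein-coding loci with a shared bin carried it in an intron. AT1G34580 encodes a member of the major facilitator superfamily, a family of membrane transporters, and its bin lies in a RathE1_cons copy. The CpHpH level there was 36.2% of 359 reads in SQL against 23.4% of 252 reads in SQH, and 37.7% of 334 reads in FLL against 24.1% of 266 reads in FLH. Low light was higher by 12.8 points (5.42 to 19.8) under SQ and 13.7 points (6.22 to 20.8) under FL, with pattern differences of 1.51 points for FLL minus SQL and 0.648 points for FLH minus SQH. AT1G65985 encodes a putative transmembrane protein with a DUF247 domain, and its bin lies in a SIMPLEGUY1 element. The level was 1.12% in SQL (2 of 178 reads) against 11.8% in SQH (27 of 229), and 5.36% in FLL (15 of 280) against 17.0% in FLH (40 of 235). FLL was above SQL by 4.23 points (0.679 to 7.63) there. A further intron region of AT1G65985, in an ATREP10B element and listed only under SQ, had the opposite direction, with 16.6% in SQL and 4.71% in SQH.

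The non-coding RNA AT1G04425 had its shared CpHpH bin (chr1:1194751-1194900) in an intron, within an ATREP10D element of the Helitron class. The level was 38.0% of 329 reads in SQL against 26.1% of 234 reads in SQH, and 44.3% of 305 reads in FLL against 24.8% of 294 reads in FLH. Low light was higher in both patterns, by 11.9 points (4.08 to 19.4) and 19.4 points (11.9 to 26.7).

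The 3 pseudogenes with a shared bin were AT2G06335, AT2G04470 and AT3G47165. At AT2G06335, within an ATHILA2 retrotransposon, CpG methylation was 90.9% in SQL (20 of 22 reads, 72.2 to 97.5) against 48.0% in SQH (24 of 50, 34.8 to 61.5). It was 93.1% in FLL (27 of 29 reads, 78.0 to 98.1) against 58.3% in FLH (14 of 24, 38.8 to 75.5). The bin was nearly fully methylated in both low-light libraries, and with 22 to 50 reads the differences of 42.9 points (19.8 to 57.7) and 34.8 points (11.9 to 54.9) had the widest intervals of the shared bins. At AT2G04470 (chr2:1552751-1552900), in an ATCOPIA95 element, the CpHpH level was 37.3% of 330 reads in SQL against 18.7% of 407 reads in SQH and 34.0% of 474 reads in FLL against 21.0% of 224 reads in FLH. Another region of AT2G04470, in CpHpG and listed only under SQ, was lower in low light, with 4.26% in SQL and 28.9% in SQH. At AT3G47165 (chr3:17363801-17363950), in a META1 element, the CpHpH level was 11.5% of 227 reads in SQL against 23.6% of 275 reads in SQH and 7.17% of 321 reads in FLL against 18.6% of 344 reads in FLH. Its bin has 33 bases in the annotated pseudogene.

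The selection also limits the pattern differences at the 9 bins, since it kept only loci that no pattern comparison names, so these values are given as a description. FLL differed from SQL by 0.124 to 7.22 points in either direction, and FLH from SQH by 0.648 to 10.3 points, and intensity differences were at least 10.2 points under SQ and 11.4 points under FL. The largest pattern difference, 10.3 points, was at the CpG bin of AT2G06335, which had few reads.

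**Figure D1:**
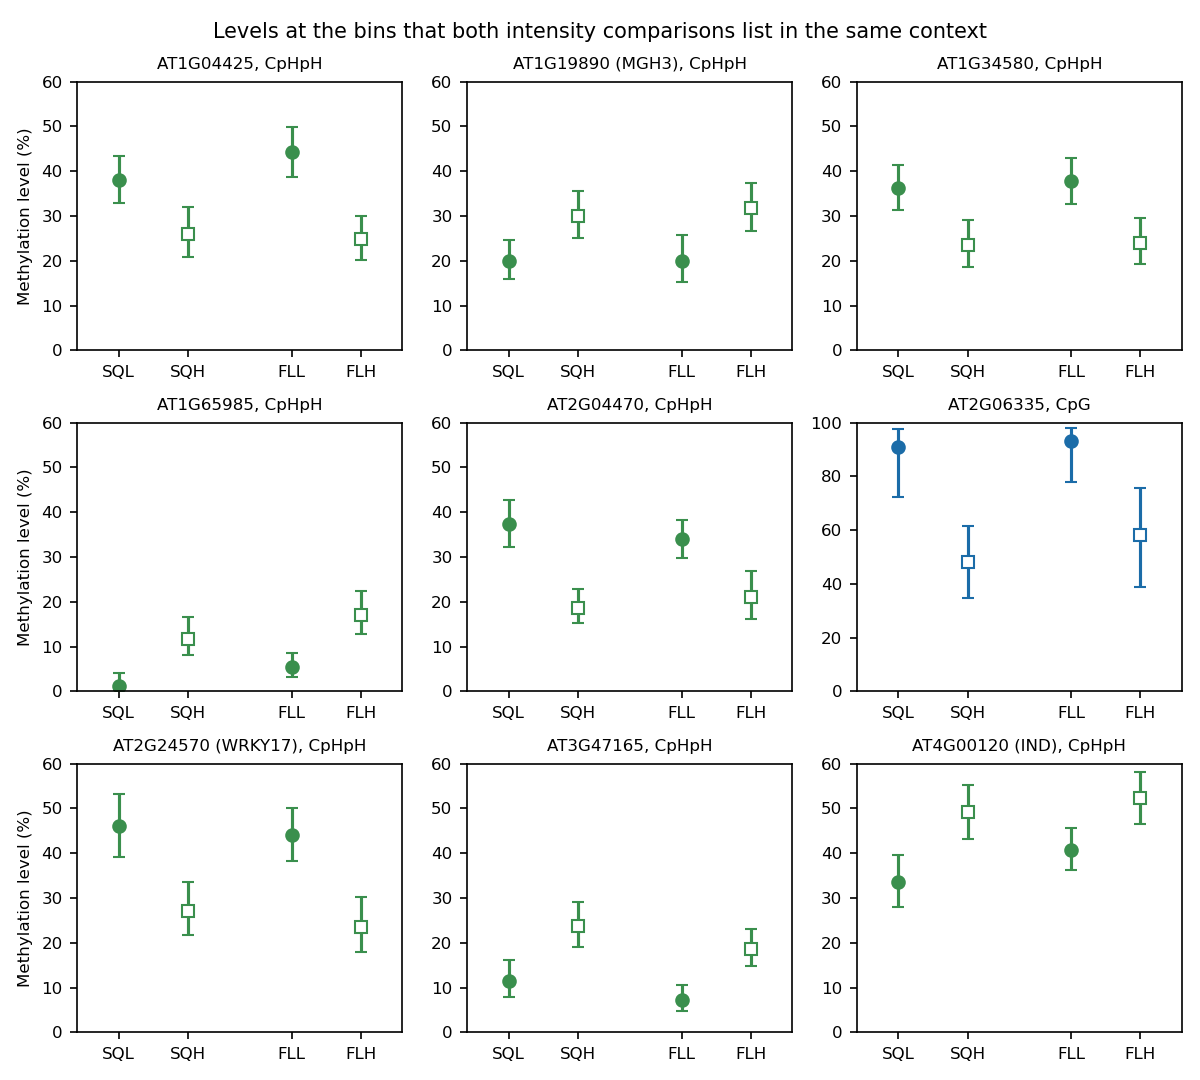
Methylation level (%) in the SQL, SQH, FLL and FLH libraries at the 9 bins that both intensity comparisons list in the same context (green CpHpH, blue CpG, filled circles low light, open squares high light). Bars are 95% Wilson intervals of 1 pooled library each. At WRKY17 the low-light levels of 46.1% and 44.1% lie above the high-light levels of 27.2% and 23.5%, and at IND the order is the reverse. The vertical axis of the CpG panel reaches 100%.

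At 2 loci the regions shared a bin in different contexts. At AT1G15015, an F-box protein gene (F-box proteins select targets for ubiquitin ligases), a bin over the 5′ end had 11.3% CpHpH methylation in SQL against 24.2% in SQH, and 88.4% CpG methylation in FLL against 68.4% in FLH. The directions were opposite. At the pseudogene AT4G06638, in a VANDAL16 element, CpHpG methylation was 8.82% in SQL against 36.7% in SQH and CpG methylation was 34.5% in FLL against 68.8% in FLH. Both contexts were lower in low light.

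Adjacent bins gave no common direction. The 6 loci with adjacent bins were named after their values were seen, and 3 had the same direction in both comparisons. AT5G43755, annotated as a reverse transcriptase-like protein of a non-LTR retroelement, had the largest CpHpG difference of the set under FL. Its level was 92.5% in FLL (37 of 40 reads) against 52.0% in FLH (13 of 25), and in the neighbouring bin 60.6% in SQL against 29.6% in SQH. The CpHpH levels of the pseudogenes AT3G43863 (11.4% in SQL against 21.8% in SQH, and 5.13% in FLL against 17.0% in FLH) and AT5G45605 (11.8% in SQL against 22.3% in SQH, and 11.5% in FLL against 23.1% in FLH) were lower in low light in both patterns. AT2G11626, a protein-coding gene of unknown function, had opposite directions in CpHpG, with 7.89% in SQL against 36.8% in SQH and 48.9% in FLL against 26.9% in FLH. AT5G29571 and AT2G13190, both pseudogenes, also had opposite directions.

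The protein-coding genes with regions further apart were AT1G34070, AT3G20950 and AT5G47300. AT1G34070, annotated as a Copia-like polyprotein, had CpHpH regions in its coding exon with 7.85% in SQL against 18.8% in SQH, and 16.9% in FLL against 5.90% in FLH. AT3G20950 (CYP705A32), a cytochrome P450 gene, had 15.3% in SQL against 28.6% in SQH over a 300 bp CpHpH region at its 5′ end, which overlaps an RP1_AT element, and 27.0% in FLL against 16.8% in FLH in a region across an exon and an intron. Both genes thus had opposite directions. AT5G47300, an F-box gene, had 4 regions, more than any other locus of the set. Its CpHpH regions had 14.6% in SQL against 3.57% in SQH at the 5′ end and 10.9% in SQL against 21.8% in SQH within the exon. Its FL regions, in neighbouring bins near the 3′ end, had 31.8% in FLL against 67.7% in FLH in CpHpG and 61.3% in FLL against 29.6% in FLH in CpG. AT4G18000, which the annotation does not hold, was higher in low light in both patterns, with 26.9% CpHpG methylation in SQL against 5.26% in SQH and 90.2% CpG methylation in FLL against 59.0% in FLH.

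All 30 pseudogenes had at least 1 region in a TE, and 62 of their 64 regions lay in a TE. The following lists are complete and were not chosen by size. All regions were higher in low light at AT1G47816, AT2G06335, AT2G10640, AT2G13380, AT4G04010 and AT4G06708. All were lower in low light at AT1G42695, AT2G04980, AT2G05690, AT2G12385, AT3G43863, AT3G47165, AT4G03980, AT4G06638 and AT5G45605. The directions were opposite between SQ and FL at AT1G35390, AT1G35790, AT1G40097, AT2G07730, AT2G13190, AT2G15550, AT2G24930, AT3G32033, AT3G42070, AT3G47330, AT4G07830, AT4G13455, AT5G28715 and AT5G29571. AT2G04470 had both directions under SQ. Within the set, AT4G03980, in an ARNOLD3 element, had the largest CpHpG difference under SQ, with 40.8% in SQL (29 of 71 reads) against 73.8% in SQH (31 of 42). AT1G35390 had the largest CpG difference of the set under FL in either direction, with 51.9% in FLL (14 of 27 reads) against 86.7% in FLH (26 of 30), while its CpHpG region under SQ had 37.7% in SQL against 10% in SQH. The only CpHpG region of the set under FL where each library had 8 or more reads per cytosine was at AT1G40097, in a VANDAL4 element, with 75.2% in FLL against 53.2% in FLH.

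Over the whole set, 22 of the 43 loci had a single direction in all their regions, 11 higher and 11 lower in low light. A further 18 had opposite directions in the SQ and FL comparisons, and 3 (AT1G65985, AT2G04470 and AT5G47300) had both within a comparison. The 22 of 43 stand beside 34.8% of the 339 other loci named in both intensity comparisons, also without adjustment for the number of regions. All 339 are named in a pattern comparison and the set is not. This contrast is therefore partly fixed by the selection, as at the shared bins. Of the 18 opposite loci, 13 were lower in SQL than in SQH and higher in FLL than in FLH, and 5 the reverse. All gene-named regions lean the same way, with 41.5% higher in SQL and 56.8% higher in FLL. Where regions did not overlap, 14 loci had a single direction, 17 opposite directions and 1 both. Of the 22 loci with a single direction, 8 had no context in common between SQ and FL.

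**Figure D2:**
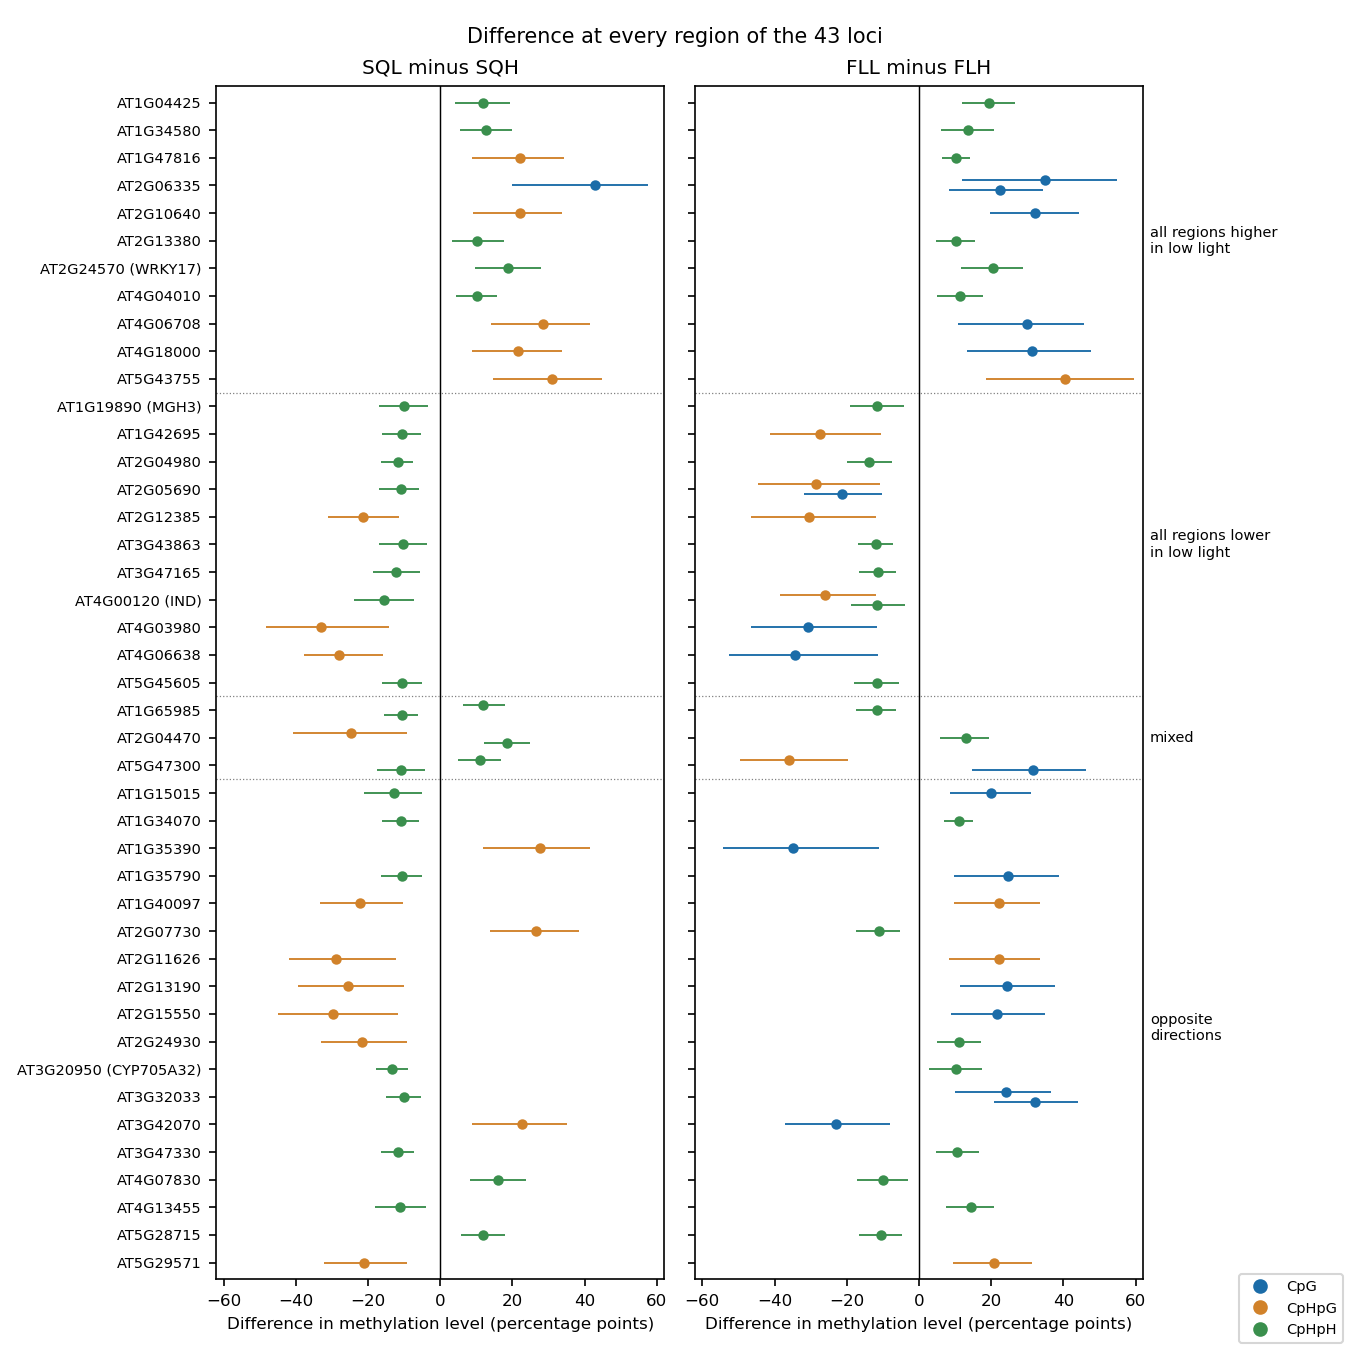
Difference in methylation level (percentage points, low light minus high light) at every region of the 43 loci, for SQL minus SQH and FLL minus FLH. Points are regions coloured by context, bars are 95% Newcombe intervals, and dotted lines separate loci with all regions higher in low light (11), all lower (11), both directions within a comparison (3) and opposite directions (18).

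The directions by context can be read beside those of all regions that name a gene. In SQL against SQH, 19 of the 46 regions of the set were higher in SQL, against 41.5% of all gene-named regions. By context these were 1 of 1 in CpG (76.7% of all), 8 of 18 in CpHpG (56.6% of all) and 10 of 27 in CpHpH (28.6% of all). In FLL against FLH, 28 of the 48 regions were higher in FLL, against 56.8% of all, with 12 of 17 in CpG (51.7% of all), 4 of 9 in CpHpG (62.3% of all) and 12 of 22 in CpHpH (63.9% of all). These shares come from the contrasts that chose the members and were not tested. Beside the lone CpG region under SQ stands that the smallest CpG difference listed in that table is 40.2 points, against 20 points in the other 3.

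Levels were those of heavily methylated DNA in CpG and of lower, graded methylation in CpHpH. CpG levels had a median of 87.4% in FLL (34.5 to 97.0%) and 68.4% in FLH (29.6 to 93.5%). CpHpG levels had a median of 35.8% in SQL (4.26 to 66.3%), 40.6% in SQH (5.26 to 84.4%), 48.9% in FLL (20.3 to 92.5%) and 53.2% in FLH (26.9 to 86.4%). CpHpH levels had medians of 14.6% in SQL, 18.8% in SQH, 17.8% in FLL and 17.7% in FLH, with a highest level of 52.3% at IND in FLH. The medians under SQ and under FL come from mostly different regions, 18 and 9 in CpHpG and 27 and 22 in CpHpH. They therefore do not compare SQ with FL. Median differences in either direction were 25.1 points in CpHpG and 11.1 points in CpHpH under SQ, and 30.0 points in CpG, 27.3 points in CpHpG and 11.5 points in CpHpH under FL.

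The same context was listed in both comparisons at 25 loci, in CpHpH at 19, CpHpG at 5 and CpG at 1. In 16 of these the regions lay in different bins, and 7 had a single direction and 9 opposite directions. The other 18 loci were named in different contexts under SQ and FL. The smallest CpG difference listed in SQL against SQH was 40.2 points, and no CpG difference of the set under FL exceeded 34.8 points. Which contexts match is therefore not independent of the limits of the lists. The same counts were not made for other loci.

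TEs carried most of the regions. In SQL against SQH, 37 of 46 regions of the set lay in a TE (80.4%), against 79.2% of the other 1036 gene-named regions, and in FLL against FLH 38 of 48 (79.2%) did, against 57.6% of the other 2546. The FL shares are not like for like, because a member must also be named under SQ. The contexts differ too, with 1449 of all 2594 gene-named FL regions in CpG against 17 of the 48 regions of the set. At 33 loci both comparisons had a region in a TE, and at 30 it was the same TE copy. The copies belonged to 29 families. ATHILA elements, LTR retrotransposons of the Gypsy type, occurred at 8 loci and VANDAL elements, Mutator-like DNA transposons, at 6, while ATLANTYS, ATLINE and ARNOLD families occurred at 3 each. Shares of these families and of shared copies were not computed for other loci. The counts therefore do not show that the set is rich in any family. The 7 loci with no listed region in a TE were AT1G15015, AT1G19890, AT1G34070, AT2G11626, AT4G18000, AT5G43755 and AT5G47300. Of these, AT1G34070 and AT5G43755 are themselves annotated as retroelement proteins.

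The regions often reached over the end of the locus that named them. Of the 92 regions at annotated loci, 50 lay in exons, 8 in introns, 7 across an exon and an intron, and 27 extended past an end. At 8 loci at least 1 region had fewer than 50 bases in the locus, with 8 bases at AT2G05690 and AT2G13190. Both regions of MGH3, WRKY17 and AT3G47165 were of this kind. The region with 8 bases in AT2G05690, its only region under SQ, also lies over another annotated pseudogene, AT2G05680.

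**Figure D3:**
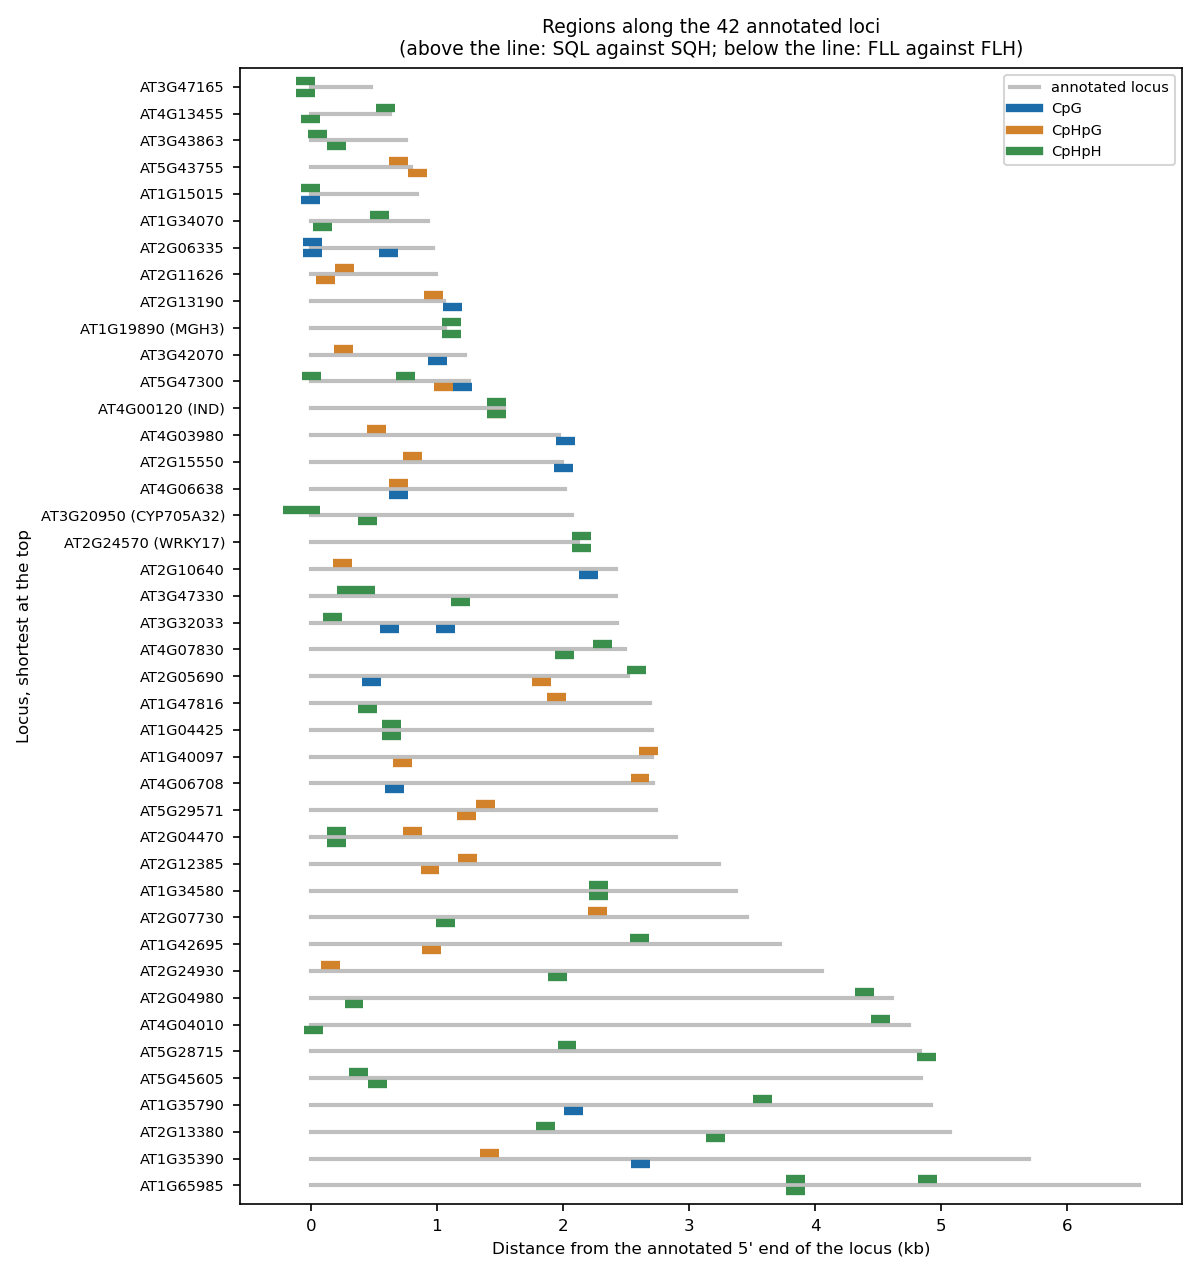
Position of the regions along the 42 annotated loci, as distance (kb) from the annotated 5′ end, with loci ordered by length from 474 to 6569 bp. Grey lines are the loci, coloured bars the regions by context, above the line for SQL against SQH and below it for FLL against FLH. Bars stacked at the same position mark overlapping regions, as at WRKY17 and IND, and 26 loci have bars further apart.

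A locus that no pattern comparison names can still have a pattern DMR beside it under no gene name or another one. No such region reached into the annotated bounds of a member, but 13 loci had one within 1 kb of a region of theirs. The same count was not made for other loci, so the 13 are not read as a trait of the set. At AT3G20950 a CpHpH region upstream of the gene, listed in FLL against SQL, overlapped the 300 bp region itself, with 40.9% in FLL and 20% in SQL. At 3 loci the next bin was listed. At AT1G15015 the adjoining bin had 75.4% CpHpG methylation in FLL against 54.7% in SQL and 74.7% in FLH against 46.2% in SQH, and it was also listed in CpHpH. At MGH3 the next bin had 70.9% CpHpH methylation in FLL and 82.9% in SQL. At WRKY17 the next bin, in the same BOMZH1 copy, had 30.4% in FLH and 45.6% in SQH, and a bin 450 bp away had 16.4% in FLL and 31.3% in SQL. None of these regions carries the name of a member in the deposited tables.

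In size and setting the set was compared with other loci without a test. The median length was 2461 bp (474 to 6569 bp), against 3998 bp for the 339 other loci named in both intensity comparisons, 3147 bp for the 262 named only in both pattern comparisons and 1796 bp for all annotated loci. A longer locus has more bins that can be listed, and the 339 are also named in a pattern comparison. Length is therefore not independent of the selection. Pseudogenes made up 71.4% of the set, against 72.7% of the 339, 60.8% of the 262 and 10.3% of all annotated loci. Within 100 kb of a member there was a median of 27 protein-coding genes, against 37, 19 and 53 in the same order of locus groups. Of all 5110 loci named in any comparison, 5074 were matched in the annotation. Their median length was 2854 bp, 43.9% were pseudogenes, and the median number of protein-coding genes within 100 kb was 42. The 42 members found in the annotation lay on all 5 chromosomes, with 11, 13, 6, 7 and 5 loci on chromosomes 1 to 5. The regions of AT4G18000, which was not matched, lie on chromosome 4.

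At the edge of the selection, the smallest differences that admitted a member were 10.1 points in CpHpH at AT4G04010 under SQ (17.9% in SQL against 7.83% in SQH) and -10.1 points in CpHpH at AT4G07830 under FL (11.3% in FLL against 21.4% in FLH). In CpHpG they were -21.1 points under SQ and 20.7 points under FL, both at AT5G29571. Just outside, AT2G38220 was left out by a CpHpH region of 10.4 points (24.4% in FLH against 14.0% in SQH) and AT4G09143 by a region of 10.6 points (24.5% in FLL against 14.0% in SQL). In all, 88 loci named in both intensity comparisons were left out by 1 pattern region.

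No listed gene of the methylation machinery or of light perception and photoprotection belonged to the set. Of 20 genes of DNA methylation, 0 were named in SQL against SQH and 3 in FLL against FLH (CMT3, SUVH6 and CLSY1). Of 24 genes of light perception and photoprotection, 0 were named in SQL against SQH and 2 in FLL against FLH (PHOT1 and COP1, a blue-light receptor and a repressor of light signalling). In the pattern comparisons, FLH against SQH named 2 genes of the methylation list and 3 of the light list, and FLL against SQL named 5 and 0. These counts stand beside the shares of annotated loci named in each comparison (2.39% and 5.57% for intensity, 5.65% and 7.81% for pattern). Membership also needs a call in SQL against SQH, where the smallest CpG difference listed is 40.2 points. The FLL against FLH calls at CMT3, SUVH6, CLSY1 and COP1 were all in CpG, the largest -36.0 points at CMT3. The PHOT1 call was in CpHpH. With 43 members beside 37899 annotated nuclear loci, the absence of listed genes is a description only.

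Depth limited all of these values. Regions of the set had a median of 7.15 reads per cytosine in SQL (4.61 to 11.8), 7.03 in SQH (4.17 to 12.5), 8.03 in FLL (4.43 to 15.5) and 7.04 in FLH (4.22 to 13.1), where the smallest value among all listed regions was 4.0. Medians over the other gene-named regions were 7.73 in SQL, 6.80 in SQH, 8.65 in FLL and 7.67 in FLH. When all 4 lists were limited to regions where each library had 8 or more reads per cytosine, 7 loci met the definition, and only 1 of them was among the 43. At a deposited p-value of at most 0.001 it was met by 31 loci, 13 of them among the 43.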

How the data were processed

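Each library was 1 pool of bisulfite-converted leaf DNA. According to the submitters' processing notes, the authors used Trimmomatic 0.39, Bismark, Bowtie2 and the TAIR10 genome, and the study's methods name DMRcaller in 150 bp bins. The 4 deposited tables hold, per region and library, read counts (methylated, and all) which the authors added up over the cytosines and did not normalize, the number of cytosines, and the authors' p-values, which were used only to filter. The authors' own columns of proportions, their differences and gain or loss labels were not used. All listed regions have at least 4 cytosines and 4.0 reads per cytosine. The SQH and SQL table lists a region once per annotated feature and has a larger CpG minimum, so each region was counted once. The tables hold regions that passed the authors' thresholds, and other bins were not analysed here.

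Columns were assigned to libraries by table name, and reads at regions shared between tables were identical. Levels, Wilson and Newcombe intervals (tested on simulated data), overlaps and reference positions were computed with Python 3.11.15 with SciPy 1.17.1, pandas 2.3.3, numpy 2.4.6 and, for plots, matplotlib 3.10.9. Positions came from the RefSeq TAIR10.1 annotation, in which 5074 of 5110 named loci were matched. Named loci were those with overlapping regions, the largest and smallest differences, the most regions, and all protein-coding members. The pseudogenes were in addition listed in full by direction, and loci with adjacent bins were named after their values were seen. The members and gene lists were chosen with earlier results of these data known. Alternatives changed the depth, p-value, CpG minimum, context, locus name and definition of overlap.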

Additional observations from a re-analysis of the deposited data

Results flagged for a closer look

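AT3G20950 (CYP705A32) has a CpHpH pattern call over a region that names it, but the call does not carry its name. The first 150 bp of its 300 bp region under SQ were also listed in FLL against SQL, there under a TE and no gene name, with a difference of 20.9 percentage points (13.3 to 28.3, 40.9% in FLL against 20% in SQL). The gene therefore counts among the loci named in no pattern comparison although a pattern call lies over its region.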

How the results depend on the processing

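The size of the set and its members depended on the definition. The count of 43 loci became 7 at a minimum of 8 reads per cytosine (1 shared with the 43), 25 when the same context was required (all among the 43), 165 with names of TE loci added (all 43 included), and 116 with annotated genes and 1 kb upstream in place of the deposited names (30 shared). It was 31 at a p-value of at most 0.001 (13 shared), 46 at a common CpG minimum of 40 points (30 shared) and 43 with only the first name of a cell, since 0 cells held several names. Among alternatives added after seeing the data, 42 loci had no pattern region of any name over a region of theirs and 30 had none within 1 kb. Overlap was found at 11 loci, at 9 when the bin and context had to be the same, and at 28 when a gap of 1 kb was allowed. The count of loci with a single direction was 22, and 22 with read-weighted levels. It was 0 of the 1 locus left at 8 reads per cytosine and 7 of 13 at a p-value of at most 0.001 (6 shared with the 22). No replicate could be left out with 1 library per regime. No paired analysis was possible because each regime has 1 library and the labels carry no replicate numbers.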
